A study of Mus musculus with 7 samples.

Results

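Receptor tyrosine kinases are membrane proteins, most of which bind a ligand such as a growth factor outside the cell and phosphorylate tyrosines inside it. The set described here holds 9 genes out of 20142 with a single row in the deposited expression table. It has 7 receptors (Kit, Flt3, Csf1r, Tek, Pdgfrb, Igf1r and Insr) and 2 ligands (Kitl and Angpt1), taken by gene symbol, and all 9 symbols were found. RNA was sequenced in EML cells (erythroid, myeloid and lymphoid), a mouse multipotent haematopoietic line, after Annexin V-positive apoptotic cells had been removed. The cells were sorted on the surface protein CD34 into CD34-negative (4 libraries) and CD34-positive cells (3 libraries). No other treatment or allele is named in the labels, the strain label is C57BL/6 in both groups, and tissue and age labels that fit an animal rather than a line were not used.

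Kit is the receptor for stem cell factor, which Kitl encodes, and EML cells are known to depend on that factor for growth. In blood, Kit marks stem and progenitor cells and mast cells, and its level falls as erythroid cells mature. Flt3 is the receptor of early lymphoid and myeloid progenitors, Csf1r that of monocytes and macrophages, Tek the angiopoietin receptor of endothelium and some stem cells, and Pdgfrb a receptor best known from pericytes and fibroblasts. Igf1r and Insr are the closely related receptors for insulin-like growth factors and insulin.

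The replicates carry the numbers 1 to 4 in their titles and a second number in their descriptions. That second number is 3 for CD34-negative and CD34-positive replicate 1 (written 3a in the latter), 2 for both replicates 2, and 4 for CD34-negative replicate 3 and CD34-positive replicate 3, while CD34-negative replicate 4 is written 4a. Libraries of equal number are compared with each other below, with CD34-negative replicates 3 and 4 each set against CD34-positive replicate 3. Cd34 itself lay between 147 and 256 FPKM in CD34-positive and between 2.67 and 91.8 FPKM in CD34-negative libraries, the highest of the latter being replicate 1. FPKM counts fragments relative to transcript length and to all mapped fragments, so that genes can be set side by side within a library, and the depth behind them is unknown. The libraries of number 2 differed from the others by transcript length, as given below, which limits comparisons there between genes of unlike length. Ribosomal protein genes took 27.7% to 37.1% of the summed FPKM in the libraries of numbers 3 and 2 but 2.25% to 4.15% in those of number 4, so the libraries differ in a way that crosses the groups. Markers common to blood cells were present, with Laptm5 between 120 and 285 FPKM, Coro1a between 72.5 and 773 FPKM, and the leukocyte phosphatase Ptprc between 2.26 and 49.8 FPKM. In bulk RNA, fewer cells with a transcript and less of it per cell cannot be told apart.

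Kit RNA was abundant on both sides of the sort, and Pdgfrb was the next receptor by mean level. Igf1r and Insr were low, Flt3 and Csf1r were near 0, and Tek and Kitl were listed at 0. None of the 5 members that could be tested passed an adjusted p of 0.05 in limma, and neither did any of the 9259 genes tested (0.0% called). Before adjustment, 313 genes (3.38%) were higher and 210 (2.27%) lower with p under 0.05, none of them a member. In no tested member were the groups apart, against 2.67% of tested genes with every CD34-positive value higher and 3.01% with every one lower. By direction, Pdgfrb was higher in CD34-positive cells and Igf1r and Angpt1 were lower in each of the 4 comparisons between libraries of equal number. The share of all tested genes that were higher in all 4 was 21.4% and that of genes lower in all 4 was 18.9%, so 1 and 2 of 5 members are near what the whole table shows. The 4 comparisons are not independent, since CD34-positive replicate 3 enters 2 of them.

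**Figure D1:**
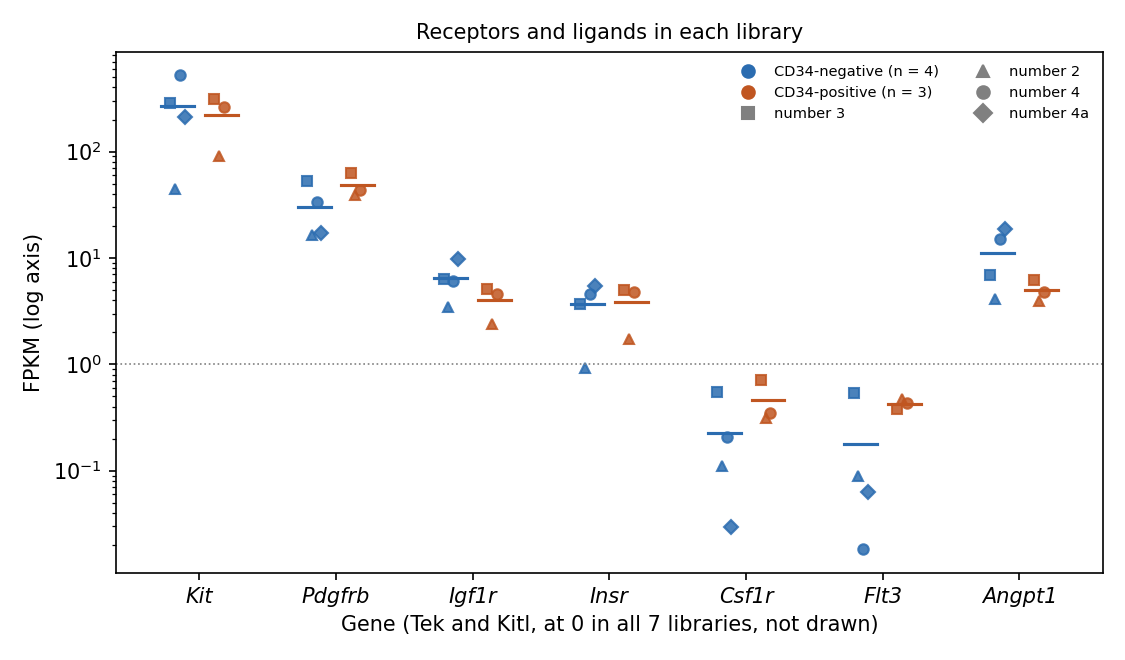
FPKM (log axis) of the 7 members above 0 in each library, CD34-negative in blue and CD34-positive in orange, with marker shapes for the description numbers and a bar at each group's mean. Kit lies above Pdgfrb in all 7 libraries, Flt3 and Csf1r lie below the dotted line at 1 FPKM, and the triangles of number 2 are the lowest points of Kit and Insr in both groups.

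By mean level over the 7 libraries, the order was Kit (247 ± 157 FPKM, SD, n = 7), Pdgfrb (38.0 ± 17.4), Angpt1 (8.55 ± 5.95), Igf1r (5.41 ± 2.39), Insr (3.74 ± 1.74), Csf1r (0.325 ± 0.240) and Flt3 (0.284 ± 0.219). Kit exceeded Pdgfrb, Angpt1 exceeded Igf1r and Insr exceeded Csf1r within 7 of 7 libraries. Pdgfrb exceeded Angpt1 in 6, with CD34-negative replicate 4 the exception, and Igf1r exceeded Insr in 6, with CD34-positive replicate 3 the exception. Csf1r and Flt3 stood in either order, Csf1r being higher in 4 of 7 libraries, and their levels did not differ beyond their spread.

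Kit stood at 285, 44.7, 522 and 213 FPKM in CD34-negative replicates 1 to 4. In CD34-positive replicates 1 to 3 it stood at 311, 91.1 and 265 FPKM. The groups overlapped: the highest and the lowest Kit levels were both in CD34-negative libraries, and each replicate 2 was the lowest of its group. Kit ranked between place 38 and place 257 among all genes in the 5 other libraries, but at place 1951 in CD34-negative and 995 in CD34-positive replicate 2. The log2(FPKM + 1) difference, CD34-positive minus CD34-negative, was 0.01 (SE 0.87, adjusted p = 1.0 in limma), and 0.21 (SE 0.37, adjusted p = 0.771) in limma when the description number entered as a block. Differences between libraries of equal number were 0.13 for number 3, 1.01 for number 2, and -0.98 and 0.31 for number 4 against CD34-negative replicates 3 and 4. The sign within number 4 thus turned on which CD34-negative library was used, and the sign of the overall difference also turned with scaling and with single libraries. Leaving out CD34-negative replicate 2 gave -0.69, and leaving out CD34-positive replicate 2 gave 0.56. Quantile normalization gave -0.30 and median-ratio scaling -0.09.

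Marker lists of 3 blood cell types differed in level between these libraries, and no gene of them passed over all genes in limma, with or without the block. Of 6 tested mast cell markers, 5 were lower in CD34-positive libraries in all 4 equal-number comparisons. The sixth, the carboxypeptidase Cpa3, was higher in 3 of the 4 comparisons with groups that overlapped, at 1655, 451, 3134 and 624 FPKM in CD34-negative and 1936, 2219 and 3044 FPKM in CD34-positive libraries. Summed FPKM over the 7 genes of the list ran from 1655 to 11011 in CD34-negative and from 2130 to 3206 in CD34-positive libraries, most of the latter being Cpa3. The highest sum was in CD34-negative replicate 3, which also held the most Kit, with the chymase Cma1 at 4886 FPKM and Mcpt4 at 1752 FPKM. Of 7 erythroid markers, 6 were lower in all 4 comparisons. The other, Hbb-b1, had both signs, at 30.4, 1405, 37.4 and 154 FPKM in CD34-negative and 1.40, 624 and 136 FPKM in CD34-positive libraries. Klf1 stood at 29.1, 175, 12.1 and 53.6 FPKM in CD34-negative and 5.38, 3.10 and 0.427 FPKM in CD34-positive libraries. Its highest level was in CD34-negative replicate 2, the library with the least Kit. CD34-positive replicate 2, the next lowest in Kit, held 3.10 FPKM of Klf1. The 3 tested neutrophil and monocyte progenitor markers were higher in all 4 comparisons. Elane, also on that list, was below the minimum for testing, at 0.300 FPKM in CD34-negative replicate 1. It was listed at 0 in every other library, the CD34-positive ones included, and such zeros can be failed estimates. Of all tested genes, 21.4% were higher and 18.9% lower in all 4. The mean level of Mpo, which encodes a granule peroxidase, was 360 ± 524 FPKM in the 4 CD34-negative and 1355 ± 421 FPKM in the 3 CD34-positive libraries (SD). For the protease gene Ctsg it was 126 ± 68.9 and 404 ± 224 FPKM. The summed level of the 4 genes of that list ran from 124 to 1308 FPKM and from 1234 to 2354 FPKM. The part of these cell types in the Kit levels was not tested.

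Kitl, the Kit ligand, was listed at 0 in all 7 libraries. A zero in such a table can also be a failed estimate, and 6921 of the 20142 genes were listed at 0 in all 7, among them the broadly expressed Ryk and Irs2. A listed zero here therefore does not show that the RNA was absent.

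Among all 58 receptor tyrosine kinases listed, Kit took the largest share of receptor RNA in each library. Its share of their summed FPKM was 68.8%, 38.7%, 82.6% and 76.1% in CD34-negative replicates 1 to 4. It was 67.6%, 43.5% and 70.4% in CD34-positive replicates 1 to 3. Group means were 66.6% ± 19.4 (SD, n = 4) and 60.5% ± 14.8 (SD, n = 3), and the groups overlapped. Kit and Pdgfrb together took 53.1% to 87.9%. Of the 58, 26 were listed at 0 in all 7 libraries, 17 reached 1 FPKM in at least 1 library and 10 did so in every one. Any failed estimate among the 26 would make the shares given here too high. After Kit (mean share 64.0%) and Pdgfrb (11.8%) came Axl, a receptor for the vitamin K-dependent protein Gas6, at 5.77%, and the fibroblast growth factor receptor Fgfr1 at 2.99%. In CD34-negative replicate 2 Axl stood above Pdgfrb, at 18.1% against 14.4%.

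Pdgfrb, which binds PDGF-B and PDGF-D dimers, stood at 53.3, 16.6, 33.4 and 17.0 FPKM in CD34-negative replicates 1 to 4. In CD34-positive replicates 1 to 3 it stood at 62.9, 38.9 and 43.7 FPKM. Each CD34-positive library exceeded the CD34-negative ones of its number, but the groups overlapped because CD34-negative replicate 1 lay above CD34-positive replicates 2 and 3. The log2 difference was 0.81 (SE 0.46, adjusted p = 1.0 in limma). With the block it was 0.76 (SE 0.27, adjusted p = 0.178). Before adjustment it was the 1 member of 5 past 0.05 in that fit, where 12.8% of all tested genes were higher and 9.14% lower at that level. Equal-number differences were 0.24 (number 3), 1.18 (number 2), and 0.38 and 1.31 (number 4 against CD34-negative replicates 3 and 4). Of 8 stromal and fibroblast markers, 6 were listed at 0 in all libraries, among them Col1a2, Col3a1, Dcn and Cxcl12, which can be failed estimates, and the summed level of all 8 did not exceed 0.0325 FPKM in CD34-negative or 0.0161 FPKM in CD34-positive libraries. The related receptor Pdgfra was listed at 0 throughout. Of the PDGF ligands, Pdgfa was present (3.52 and 3.83 FPKM on average in CD34-negative and CD34-positive cells), Pdgfb stayed below 1 FPKM and Pdgfc and Pdgfd were listed at 0.

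Igf1r stood at 6.37, 3.43, 6.04 and 9.80 FPKM in CD34-negative replicates 1 to 4 and at 5.16, 2.41 and 4.62 FPKM in CD34-positive replicates 1 to 3. It was lower in CD34-positive cells within each number, while the groups overlapped. The log2 difference was -0.52 (SE 0.37, adjusted p = 1.0 in limma; -0.44, SE 0.20, adjusted p = 0.248 with the block). Insr stood at 3.71, 0.926, 4.53 and 5.47 FPKM in CD34-negative and at 5.02, 1.75 and 4.74 FPKM in CD34-positive cells, in the same order of replicates. Its differences had both signs, 0.35 and 0.51 for numbers 3 and 2 and 0.05 and -0.17 for number 4, and its overall difference was 0.10 (SE 0.48, adjusted p = 1.0 in limma). The sign of that value turned under quantile normalization (-0.0052) and without CD34-negative replicate 2 (-0.28).

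Because both receptors were measured in the same libraries, their ratio does not depend on library scaling. Igf1r exceeded Insr 1.72-, 3.70-, 1.33- and 1.79-fold in CD34-negative replicates 1 to 4. The ratio was 1.03, 1.38 and 0.975 in CD34-positive replicates 1 to 3. It was lower in the CD34-positive library of each number, and across numbers CD34-positive replicate 2 overlapped with CD34-negative replicate 3. The means were 2.14 ± 1.06 (SD, n = 4) and 1.13 ± 0.222 (SD, n = 3), given without a test. The ratio of 3.70 in CD34-negative replicate 2 raised the first mean, and Insr stood at only 0.926 FPKM in that library. The adaptors Irs1 and Irs2, which carry the signal of both receptors, and the ligands Igf1, Igf2, Ins1 and Ins2 were listed at 0 in every library.

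Angpt1, a secreted ligand of Tek, stood at 6.90, 4.10, 15.2 and 18.8 FPKM in CD34-negative replicates 1 to 4. In CD34-positive replicates 1 to 3 it stood at 6.19, 3.97 and 4.73 FPKM. The 2 CD34-negative libraries of number 4 were high, and the other 5 libraries lay together between 3.97 and 6.90 FPKM. The log2 difference was -0.85 (SE 0.48, adjusted p = 1.0 in limma), and -0.71 (SE 0.33, adjusted p = 0.266) with the block. Equal-number differences were -0.13 (number 3), -0.04 (number 2), and -1.5 and -1.79 (number 4), so the mean difference came mostly from number 4. Tek, the receptor, was listed at 0 in every library, as was the ligand Angpt4. The related receptor Tie1 was detectable, at 1.81, 0.173, 0.0346 and 0.137 FPKM in CD34-negative and 3.69, 0.925 and 1.10 FPKM in CD34-positive libraries. Of 6 endothelial markers, 2 were listed at 0 throughout, Emcn and Cldn5, which can be failed estimates. Pecam1 was present in every library, at 36.4 to 80.7 FPKM in CD34-negative and 58.3 to 96.6 FPKM in CD34-positive cells. Vwf reached 6.95 FPKM in CD34-negative replicate 3, and Cdh5 and Esam stayed below 1 FPKM.

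Flt3 was below 1 FPKM in all 7 libraries. It stood at 0.539, 0.0882, 0.0184 and 0.0625 FPKM in CD34-negative replicates 1 to 4 and at 0.377, 0.470 and 0.434 FPKM in CD34-positive replicates 1 to 3. CD34-positive libraries exceeded CD34-negative ones within numbers 2 and 4, and CD34-negative replicate 1 was the highest of all. Its ligand Flt3l was higher, at 6.04 to 17.0 FPKM in CD34-negative and 7.42 to 10.3 FPKM in CD34-positive libraries.

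Csf1r was also below 1 FPKM throughout, at 0.548, 0.110, 0.208 and 0.0294 FPKM in CD34-negative and 0.710, 0.316 and 0.352 FPKM in CD34-positive libraries. It was higher in the CD34-positive library of each number. Neither gene reached the minimum for testing. In a limma fit without a minimum, the difference was 0.30 (SE 0.14, adjusted p = 0.858) for Flt3 and 0.26 (SE 0.16, adjusted p = 1.0) for Csf1r. Of the macrophage markers, Cd14 and C1qa were listed at 0, which may be failed estimates, and the summed level of the 8 markers in the table, most of it the lysosomal Cd68, ran from 3.63 to 12.6 FPKM in CD34-negative and from 8.87 to 14.8 FPKM in CD34-positive libraries. Csf1, the ligand of Csf1r, averaged 4.5 ± 6.82 FPKM (SD, n = 4) and 0.725 ± 0.557 FPKM (SD, n = 3), and 14.7 FPKM in CD34-negative replicate 3 set the first of these means.

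**Figure D2:**
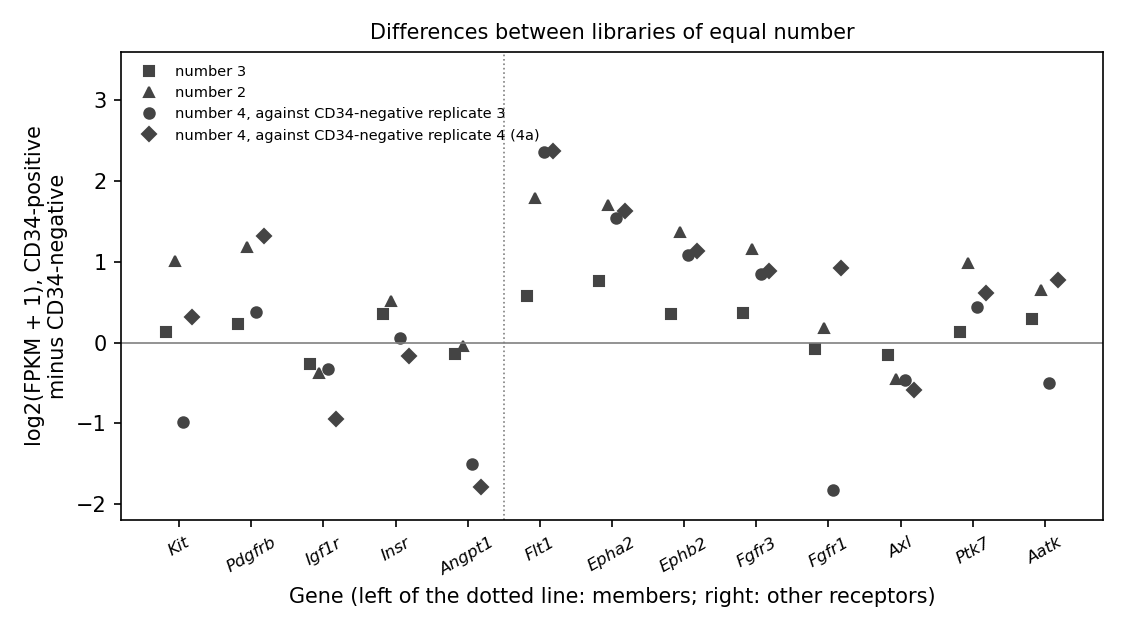
Difference of log2(FPKM + 1), CD34-positive minus CD34-negative, between libraries of equal description number, for the 5 tested members (left of the dotted line) and 8 other receptors (right). Pdgfrb lies above 0 and Igf1r and Angpt1 below 0 in all 4 comparisons, Kit and Insr lie on both sides, and Flt1 and Epha2 lie between 0.58 and 2.37.

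Of the 51 receptor tyrosine kinases outside the set, 12 could be tested, 25 were listed at 0 throughout and 14 were below the minimum. None of the 12 passed over all genes in limma. In 2 of them, Flt1 and Epha2, every CD34-positive library exceeded every CD34-negative one, against 2.67% of all tested genes. With the block 6 of the 12 were higher and 1 lower before adjustment, where 12.8% and 9.14% of all tested genes were, so the 1 lower is near the whole table. Of the 5 tested members 1 and 0 were. Flt1, a receptor for vascular endothelial growth factors, averaged 3.20 ± 2.28 FPKM (SD, n = 4) in CD34-negative and 11.5 ± 3.0 FPKM (SD, n = 3) in CD34-positive cells, a log2 difference of 1.68 (SE 0.40, adjusted p = 0.532 in limma, 0.0931 with the block). Epha2, an ephrin receptor, averaged 1.10 ± 1.28 and 4.33 ± 1.31 FPKM, a difference of 1.48 (SE 0.42, adjusted p = 0.647 in limma, 0.0931 with the block). Ephb2 averaged 1.81 and 4.66 FPKM and Fgfr3 0.547 and 1.74 FPKM. Axl, at 15.2 ± 3.81 and 11.8 ± 2.92 FPKM, was the 1 of these 12 with lower values in all 4 comparisons (18.9% of all tested genes). Higher values in all 4 were found for 6 of the 12 (21.4% of all tested genes), among them Ptk7, Ephb2 and Fgfr3. Groups overlapped for Axl, Ephb2, Fgfr3, Fgfr1 (11.7 and 7.74 FPKM), Ptk7 (4.95 and 8.34 FPKM) and Aatk (4.69 and 6.03 FPKM). The sign for Fgfr1 turned without CD34-negative replicate 3, where it stood at 27.9 FPKM. The median difference was 0.54 over the 12 other receptors, 0.01 over the 5 tested members and 0.09 over all tested genes. With the block and without both libraries of number 3, 233 genes passed as higher and 81 as lower. Among them Flt1 and Epha2 (adjusted p = 0.0137 for each), Ephb2 (0.0309) and Fgfr3 (0.0460) passed as higher in limma, and no member of the set passed. That fit leaves out CD34-negative replicate 1, which held the highest CD34-negative levels of Flt1, Epha2, Ephb2 and Fgfr3. It was chosen with earlier results of these data known.

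Most of the genes downstream of Kit were recorded, with 30 of 31 in the table reaching the minimum. Of these 30 adaptors, kinases and effectors none passed over all genes in limma, with or without the block. With the block 7 were higher and 0 lower before adjustment, where 12.8% and 9.14% of all tested genes were. In 1, Plcg2, the groups did not overlap, against 2.67% of all tested genes in that direction, so 1 of 30 is near the whole table. Plcg2, a phospholipase C, averaged 43.6 ± 17.3 FPKM (SD, n = 4) in CD34-negative and 82.0 ± 11.0 FPKM (SD, n = 3) in CD34-positive cells. Stat3, a transcription factor activated by many cytokine receptors, averaged 29.0 ± 21.6 and 71.7 ± 13.0 FPKM. Its log2 difference was 1.49 (SE 0.49, adjusted p = 0.686 in limma), and 1.43 (SE 0.27, adjusted p = 0.0931) with the block. Stat3 passed only in the fit with the block that also left out both libraries of number 3 (adjusted p = 0.0132 in limma). That fit leaves out CD34-negative replicate 1, where Stat3 stood at 61.2 FPKM, against 20.4 FPKM or less in the other CD34-negative libraries. The phosphoinositide 3-kinase catalytic subunits Pik3cd (44.8 and 77.1 FPKM) and Pik3cg (15.2 and 25.3 FPKM) were higher in the CD34-positive library of each number and did not pass. The median over the 30 was 0.14.

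Negative regulators were recorded as well, with 14 of 16 reaching the minimum. None of the 14 passed in limma over all genes, 5 were higher and 1 lower with the block before adjustment (12.8% and 9.14% of all tested genes), and their median was 0.27. The adaptor Sh2b2 averaged 7.20 and 14.9 FPKM, the docking protein Dok2 39.4 and 63.6 FPKM, and Socs6, which binds activated Kit, 7.39 and 11.3 FPKM in CD34-negative and CD34-positive cells. Spred2, an inhibitor of Ras signalling, had lower values in each CD34-positive library than in any CD34-negative one, as did 3.01% of all tested genes. It averaged 5.13 ± 1.69 FPKM in CD34-negative and 3.23 ± 0.611 FPKM in CD34-positive cells, with CD34-negative replicate 3 high at 7.65 FPKM. The difference was -0.51 (SE 0.29, adjusted p = 1.0 in limma), and -0.50 (SE 0.24, adjusted p = 0.284) with the block. Sh2b2 passed in limma with the block and without both libraries of number 3 (adjusted p = 0.0496). That fit leaves out CD34-negative replicate 1, where Sh2b2 stood at 15.9 FPKM, against 8.33 FPKM or less in the other CD34-negative libraries.

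Of the other ligands listed, 5 could be tested and 12 were listed at 0 throughout. Vegfa, a ligand of Flt1, averaged 3.68 ± 1.40 FPKM (SD, n = 4) in CD34-negative and 1.44 ± 0.390 FPKM (SD, n = 3) in CD34-positive cells. Its groups did not overlap (3.01% of tested genes were lower in this way). The log2 difference of Vegfa was -0.90 (SE 0.32, adjusted p = 0.707 in limma), and -0.82 (SE 0.18, adjusted p = 0.0931) with the block. Among 14 partners of the insulin and insulin-like growth factor receptors, 9 were listed at 0 and 3 were tested, none of which passed. Igfbp4, a secreted binding protein, averaged 327 and 436 FPKM, Igfbp6 averaged 6.94 and 14.3 FPKM, and the insulin-degrading protease Ide 28.7 and 29.5 FPKM.

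The number 2 libraries differed from the others by transcript length, as a description across genes. Across 8875 tested genes with an annotated length, the mean of both number 2 libraries minus the mean of the other 5 had a Spearman correlation of -0.54 with the length of the longest transcript. This is a correlation across genes, which are not independent replicates and share the libraries. The median difference on the log2(FPKM + 1) scale was 0.74 in the shortest of 4 equal length classes, 0.28 and -0.08 in the next classes, and -0.66 in the class of longest transcripts. The tested members run from 4260 bases for Angpt1 to 11409 bases for Igf1r, with Kit at 5241 bases. Kit, Pdgfrb, Igf1r and Insr are in the class of longest transcripts, and Angpt1 is in the class with the median of -0.08. All 5 were lower in number 2, by a difference of -2.24 for Kit, -1.30 for Insr, -1.0 for Angpt1, -0.89 for Igf1r and -0.58 for Pdgfrb. For Angpt1 the other 5 libraries include CD34-negative replicates 3 and 4, at 15.2 and 18.8 FPKM. The number 2 libraries held 4.10 and 3.97 FPKM of Angpt1, and CD34-positive replicate 3 held 4.73 FPKM. For Kit only 0.551% of tested genes had a lower value. The part of transcript length in these levels was not tested. Within number 2 itself Kit, Pdgfrb and Insr had higher values in the CD34-positive library and Igf1r and Angpt1 lower ones.

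**Figure D3:**
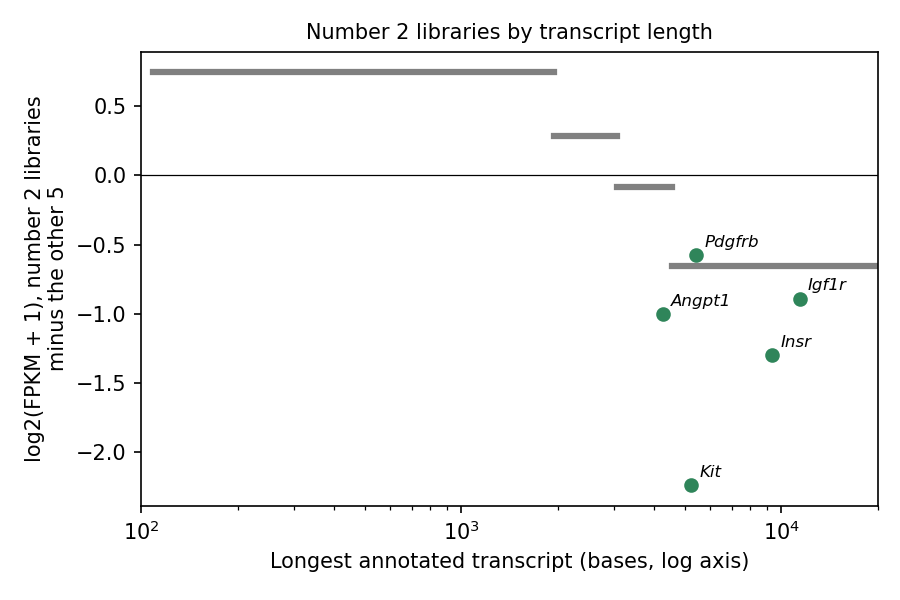
Mean log2(FPKM + 1) of both number 2 libraries minus that of the other 5 (vertical axis) against the longest annotated transcript in bases (log axis, cut at its right end), with grey bars at the median of each of 4 equal classes of tested genes by length and points for the 5 tested members. The medians fall from 0.74 to -0.66, and Kit lies at -2.24.

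The genes whose levels followed Kit most closely over the 7 libraries were Rapgef2 (Pearson r = 0.996), Sgcb (0.993), Atxn1 (0.992), Hps5 (0.990) and Hif1a (0.989). These 7 points share 3 numbers and their library effects, and all 5 genes were at their lowest in CD34-negative replicate 2, as Kit was. Of the members, Insr followed Kit at 0.903, Igf1r at 0.621, Angpt1 at 0.589 and Pdgfrb at 0.533. After the mean of each number was subtracted the closest genes were others, among them Stk4 (0.999), Znrf2 (0.998), Aga (0.998) and Creld2 (0.998). Insr then stood at 0.268, Pdgfrb at 0.673, Angpt1 at 0.0924 and Igf1r at -0.52. These values are a description over 7 libraries, with no test.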

How the data were processed

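The deposited table gives 1 FPKM value per gene symbol and library, computed by the authors; the submitters' processing notes name Cuffdiff, TopHat and TopHat2 with the builds mm9 and mm10. Annotation and strand use, not given in the sources used here, leave overlapping genes uncertain. The table had 20464 rows, of which 322 rows of 105 repeated symbols were left out. The 9259 genes that reached 1 FPKM in 3 or more libraries were tested on log2(FPKM + 1), a scale that understates changes of low genes, with limma 3.58.1 in R 4.3.3 (mean-variance trend, two-sided, Benjamini-Hochberg over all tested genes, threshold 0.05). No label ties replicates to separate cultures. The p-values therefore describe only how far these libraries vary, possibly for technical reasons. Deviations from group means correlated at 0.703 (number 3), 0.915 (number 2), 0.823 and 0.846 (number 4) between libraries of equal description number, and at 0.372 or less otherwise, so the numbers were taken to pair libraries and a block by number was fitted as an alternative. The fits were also run on simulated data with independent noise in each library and no effect of the number. Such data cannot show how the fits behave with the pairing seen here. Transcript lengths are the longest GENCODE M21 basic transcript of the symbol, with no coordinates used. Members, lists and the fits without number 3 were chosen with earlier results of these data known. Named genes are the members, Cd34, up to 4 genes of smallest p in each list, other receptors averaging 5 FPKM in either group, the 5 genes most like Kit by each of 2 measures and up to 3 markers per list of highest mean; Tie1, ligands and receptors listed at 0, and other markers were named after their values were seen. An item that the rule takes is not reported here. The alternatives were other pseudocounts, filters, scalings, blocks and left-out libraries.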

Additional observations from a re-analysis of the deposited data

Results flagged for a closer look

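In the CD34-negative group, 5 of 31 genes examined had 1 library standing apart from its 3 fellows in log2(FPKM + 1), against 5.95% of all tested genes. Chance flags about 1 in 20 groups of independent values, and these genes share libraries. The gap to the nearest library was 0.956 of the group's range for Flt1, 0.936 for Epha2, 0.924 for Fgfr3 and 0.840 for Flt3. In each of these 4 genes the library apart was CD34-negative replicate 1, on the high side, at 6.62 FPKM for Flt1, 3.02 FPKM for Epha2, 1.43 FPKM for Fgfr3 and 0.539 FPKM for Flt3. That library also held the most Cd34 of its group, 91.8 FPKM against 19.3 FPKM or less, and the part of this in the 4 values was not tested. For Spred2 the gap was 0.833 of the range, with CD34-negative replicate 3 high at 7.65 FPKM. Kit, Pdgfrb, Igf1r, Insr, Angpt1 and Csf1r had no such library.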

How the results depend on the processing

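Pdgfrb (log2 difference 0.59 to 1.13), Igf1r (-0.75 to -0.26) and Angpt1 (-1.21 to -0.56) kept their direction in 16 of 16 alternatives and passed the threshold in none. Kit kept its direction in 10 of 16 and Insr in 10 of 15. Kit was -0.30 with quantile normalization, -0.093 with median-ratio scaling and -0.14 without both libraries of number 3, and -0.69 to 0.56 when any 1 library was left out. Insr was -0.0052 with quantile normalization, -0.045 without both libraries of number 3 and -0.28 to 0.47 with 1 library left out. Both scalings lowered the median difference of all genes by less than 0.1. With 1 library left out, Flt3l ran from -0.28 to 0.17, Fgfr1 from -0.57 to 0.34, Pdgfa from -0.14 to 0.43 and Ide from -0.13 to 0.20. Ide was -0.043 with quantile normalization and -0.014 with median-ratio scaling. Pdgfa was -0.0072 with quantile normalization, -0.047 with CD34-negative replicates 3 and 4 averaged, -0.052 with the replicate block and -0.049 with the block without number 3. The cause was not tested. The replicate block changed no call (smallest adjusted p = 0.0767 in limma; before adjustment, 1188 genes were higher and 846 lower). Over all genes, 0 to 7 passed as higher and 0 to 3 as lower with 1 library left out, the 7 and 3 without CD34-negative replicate 1. With the replicate block and without number 3, 233 passed as higher and 81 as lower, among them 4 receptors, 1 gene downstream of Kit and 1 negative regulator. Depth is unknown, so no limit can be given for Flt3, Csf1r, Tek and Kitl.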
